A study of Homo sapiens with 12 samples.

Results

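The mitosis and cytokinesis genes described here are 41 genes whose products carry a cell from mitotic entry to abscission. The genes were chosen by name from what they are known to do and not by their values, though earlier results of these data were known. All 41 were found among the 29744 entries of the count table, and all 41 were in each of the 3 sets of expressed genes that the study compared (11435, 10904 and 11210 genes). They were read in MB157, a triple-negative breast cancer cell line (no hormone receptors and no HER2 amplification) that carries a truncated, active NOTCH1, and in MB157R, a derivative that grew out of MB157 during 25 weeks in 1 µM of the γ-secretase inhibitor (GSI) LY3039478, which blocks the release of the NOTCH1 intracellular domain (N1-ICD). MB157 iEV and MB157R iEV carried a doxycycline-inducible empty vector, MB157 iSOX2 an inducible SOX2 and MB157R iN1-ICD an inducible N1-ICD, which the methods describe as NOTCH1 without its extracellular part. All 4 groups, with 3 libraries each, were given 1 µg/ml doxycycline for 72 h, so the empty-vector controls share the doxycycline. MB157R is 1 derivative of 1 line, and neither the labels nor the methods say whether it was in GSI when RNA was taken or whether the vectors were in clones. The labels give no culture, passage or day for a library.

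Entry into mitosis is driven by CDK1 bound to cyclin A or cyclin B and is helped by PLK1 and the Aurora kinases. The spindle then attaches to kinetochores, the spindle assembly checkpoint holds back the anaphase-promoting complex until every chromosome is attached, and the central spindle finally directs the cleavage furrow. Most of these genes are transcribed late in the cell cycle by FOXM1 and the MuvB complex with B-MYB, so their mRNA in a culture depends on how many cells are in G2 and mitosis as well as on the amount in each cell. In these bulk libraries fewer such cells and less RNA per cell cannot be told apart.

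The libraries held 32773820 to 49055208 estimated counts, and the lowest count of any member in any library was 415 (CDC25C). Levels are TMM-scaled CPM, reads of a gene relative to the scaled library total, on one scale over the 12 libraries. The counts are not per gene length, so levels are compared only within a gene. Log2 fold changes and adjusted p-values are from edgeR's quasi-likelihood test on the 6 libraries of a comparison, and a gene was called at an adjusted p under 0.05. SOX2 rose from 7.61 ± 0.593 to 332 ± 25.1 CPM with its construct (mean ± SD, n = 3 libraries), and NOTCH1 rose from 99.0 ± 8.97 to 2490.3 ± 523 CPM with the N1-ICD construct, of which replicate 2 had the lowest level at 1887 CPM. SOX2 also stood higher in MB157R iEV (64.7 ± 6.70 CPM) than in MB157 iEV and fell to 20.2 ± 1.53 CPM with N1-ICD. NOTCH1 fell with SOX2 (log2 fold change -1.48). Between the lines it was only slightly lower in MB157R iEV (log2 fold change -0.19). The N1-ICD construct therefore took NOTCH1 mRNA far above its level in MB157 iEV. All 6 epithelial markers (EPCAM, CDH1, KRT8, KRT18, KRT19, KRT7) were above 1 CPM in every group, with sums per library of 2429 to 2457 CPM in MB157 iEV, 1931 to 1972 in MB157 iSOX2, 5505 to 5629 in MB157R iEV and 6707 to 7627 in MB157R iN1-ICD. Of the receptor genes, ESR1 and PGR had group means of 0.253 to 1.997 and 1.78 to 5.38 CPM, while ERBB2 (HER2) read 137 ± 8.60, 132 ± 4.16, 179 ± 1.10 and 138 ± 6.30 CPM in the same order of groups, higher in MB157R iEV than in MB157 iEV (log2 fold change 0.39) and lower with N1-ICD (-0.37). In the same order of groups the 5 leukocyte markers summed to 38.9 to 42.8, 8.29 to 10.2, 0.369 to 0.468 and 2.78 to 3.67 CPM, most of it CD14, with CD3E at 0 throughout. The 7 fibroblast and endothelial markers summed to 24.1 to 30.4, 135 to 146, 80.8 to 96.2 and 174 to 186 CPM, mostly COL1A1 and, in MB157 iSOX2, PECAM1, with CDH5 at 0 in MB157 iEV and DCN at 0 in both MB157R groups. The part of these markers in the results below was not tested.

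Taken as a sum over the 41 members, the level was highest in MB157 iEV, at 6497 to 6782 CPM (6685 ± 163, n = 3 libraries). It was 5732 to 5935 CPM in MB157R iEV (5846 ± 104), 4874 to 4965 in MB157R iN1-ICD (4933 ± 51.5) and 4478 to 4539 in MB157 iSOX2 (4506 ± 30.9). None of the 4 groups overlapped in this sum. MB157 iSOX2 held 67.4% of the MB157 iEV sum, MB157R iN1-ICD 84.4% of the MB157R iEV sum, and MB157R iEV 87.4% of the MB157 iEV sum. By gene, MB157 iSOX2 had the lowest mean for 22 members, MB157R iN1-ICD for 17 and MB157R iEV for 2. MB157 iEV had the highest mean for 28 members, MB157R iEV for 12 and MB157R iN1-ICD for 1 (KIF14). For 28 of the 41 members no neighbouring pair in this order of 4 groups overlapped, against 34.1% of the 10007 genes tested in all 3 comparisons.

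**Figure D1:**
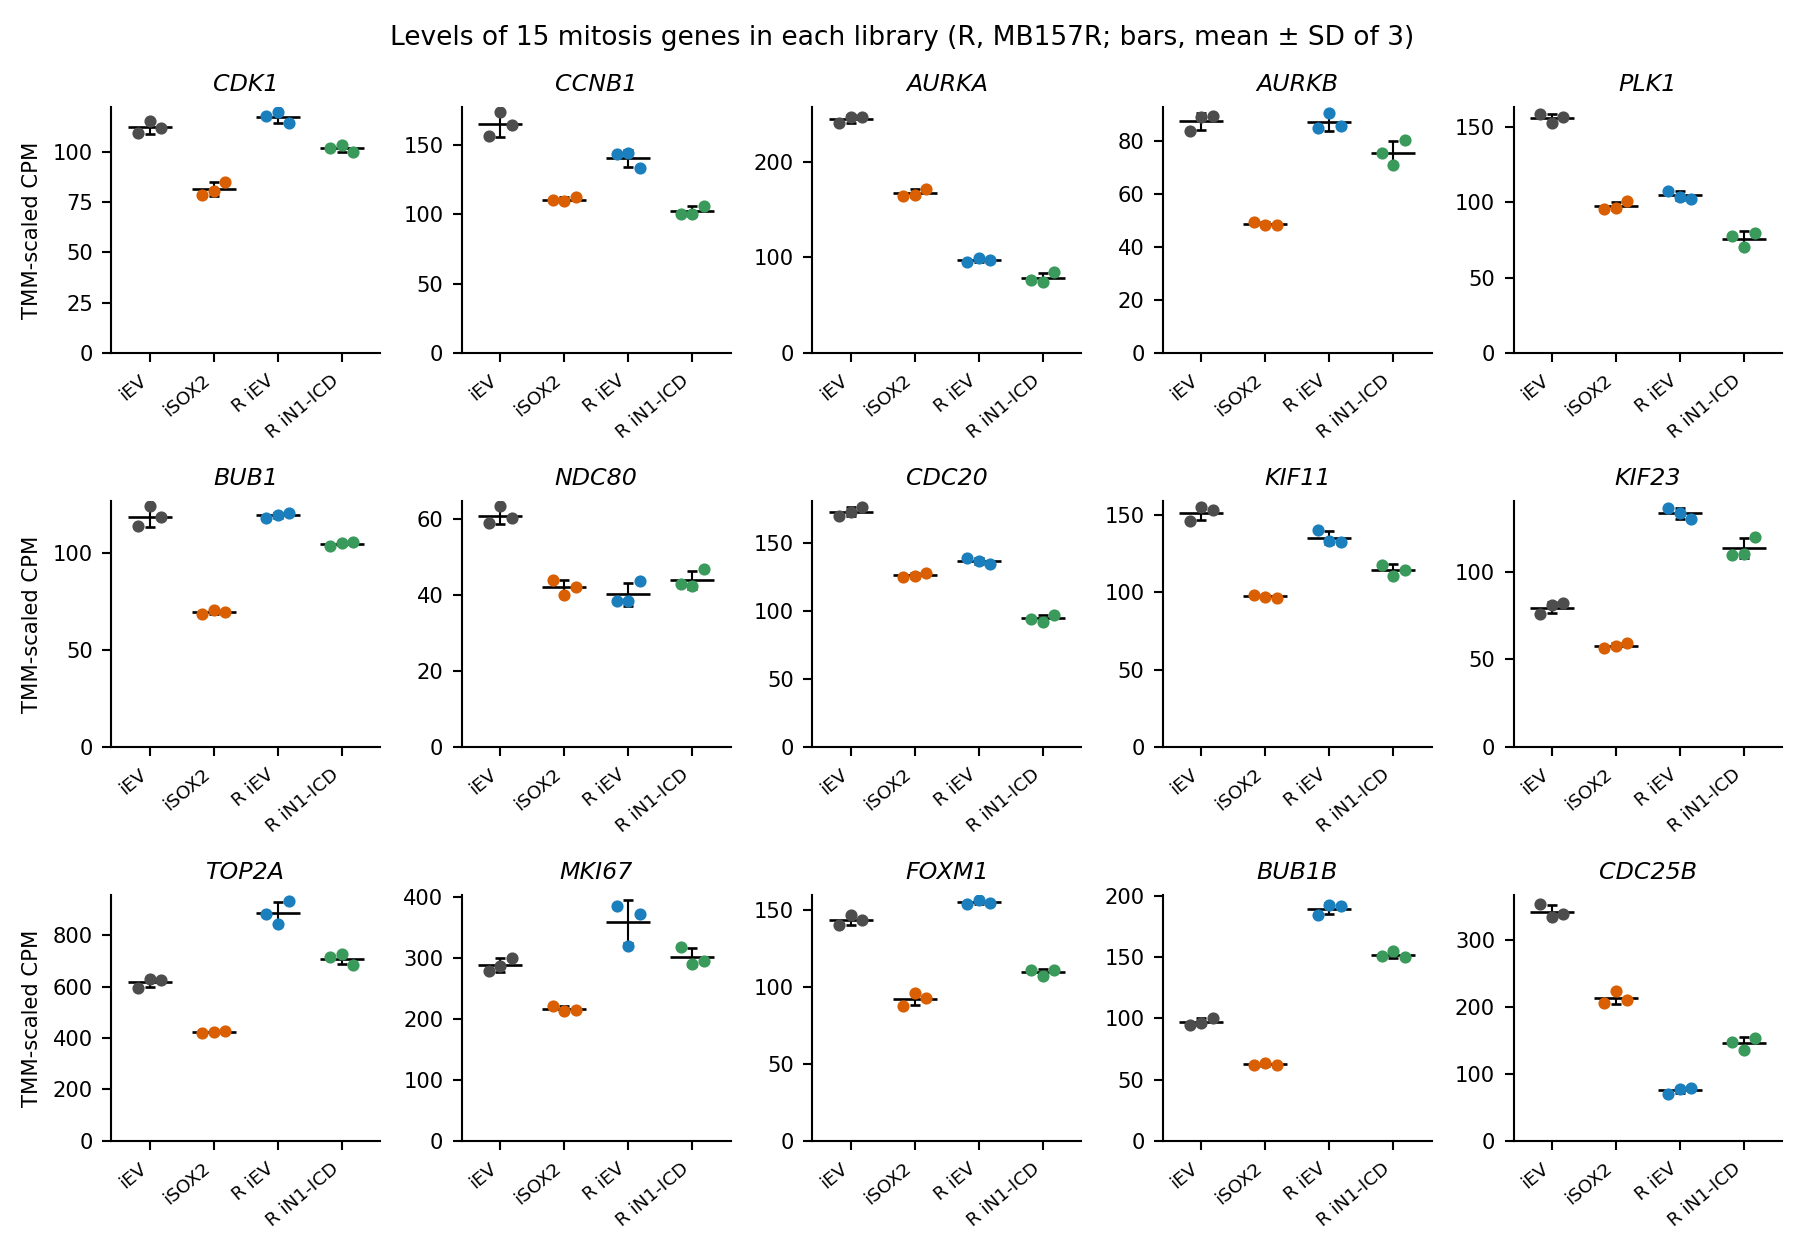
TMM-scaled CPM (vertical axes, linear and from 0) of 15 members in each of the 12 libraries, with points for libraries and bars for the mean ± SD of 3. The MB157 iSOX2 points lie below the MB157 iEV points in every panel, while KIF23, TOP2A, MKI67, FOXM1 and BUB1B are higher and AURKA and CDC25B lower in MB157R iEV than in MB157 iEV.

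The comparison of MB157 iSOX2 with MB157 iEV asks what SOX2 does to the transcriptome of cells that depend on NOTCH1. All 41 members fell with SOX2, against a background of 33.9% of the 10904 tested genes called lower and 32.5% called higher. Scaled by library totals alone, which gave all genes a median of 0.06, 26.2% of genes were lower, 40.3% higher and all 41 members still lower. The median log2 fold change of the members was -0.58, and that of all tested genes was -0.00192. The falls were of similar size: the interquartile range of the members lay between -0.68 and -0.52, against -0.19 to 0.20 for all tested genes. In each of the 41 members the 3 MB157 iSOX2 libraries lay below the 3 MB157 iEV libraries, a separation seen in 70.0% of all tested genes. Tested against a log2 fold change of 0.5 in place of 0, 23 members were still called lower, where 5.82% of all tested genes were called lower and 6.47% higher.

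The largest falls with SOX2 were those of AURKB, CDC25C and KIF20A. AURKB, the kinase of the chromosomal passenger complex, read 83.8, 88.9 and 89.6 CPM in MB157 iEV and 49.4, 48.5 and 48.4 in MB157 iSOX2. Its log2 fold change was -0.85 (SE 0.04, adjusted p = 9.6e-12). CDC25C, a phosphatase that activates CDK1, read 19.2, 20.1 and 19.6 CPM in MB157 iEV and 11.0, 11.4 and 11.2 in MB157 iSOX2. Its log2 fold change was -0.82 (SE 0.06, adjusted p = 7.5e-09). KIF20A, a kinesin of the central spindle, read 85.6, 91.6 and 85.5 CPM in MB157 iEV and 50.3, 52.3 and 49.4 in MB157 iSOX2, with a log2 fold change of -0.79 (SE 0.04, adjusted p = 4.3e-11). For each of the 3 genes every library with SOX2 lay below every control library. The smallest falls were those of KIF4A (-0.26), SPC24 (-0.27) and SPC25 (-0.30), a chromosome-bound kinesin and a pair of partners in the NDC80 complex of the kinetochore. By role, the median was lowest for the anaphase-onset genes (-0.64), the motors (-0.64) and the checkpoint genes (-0.64) and least low for TOP2A and MKI67 (-0.48).

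The comparison of MB157R iN1-ICD with MB157R iEV asks what the induced N1-ICD construct does to resistant cells. With N1-ICD 34 members fell, 1 rose (CDC25B) and 6 were not called (CDC25C, BUB3, NDC80, ESPL1, KIF2C and KIF14). Of the 11210 tested genes 29.3% were called lower and 29.8% higher. The median log2 fold change of the members was -0.24, and that of all tested genes was -0.00141. The groups did not overlap for 36 of 41 members, against 65.1% of all tested genes. Against a log2 fold change of 0.5, CDC25B was still called higher and no member lower (0 also at an unadjusted p under 0.05), where 7.03% of all tested genes were called higher and 1.98% lower.

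The largest falls with N1-ICD were those of BIRC5, CDC20 and SPC24. BIRC5 (survivin), a subunit of the chromosomal passenger complex, read 127, 131 and 134 CPM in MB157R iEV and 94.8, 85.2 and 89.5 in MB157R iN1-ICD. Its log2 fold change was -0.53 (SE 0.04, adjusted p = 2.7e-06). CDC20, the activator of the anaphase-promoting complex, read 139, 137 and 135 CPM in MB157R iEV and 94.2, 92.0 and 97.3 in MB157R iN1-ICD, with a log2 fold change of -0.52 (SE 0.04, adjusted p = 9.7e-07). SPC24 read 20.2, 21.5 and 21.5 CPM in MB157R iEV and 14.5, 14.1 and 15.4 in MB157R iN1-ICD, with a log2 fold change of -0.51 (SE 0.07, adjusted p = 6.1e-05). None of the 3 genes overlapped between groups. CDC25B, the other CDK1-activating phosphatase among the members, read 70.5, 77.0 and 78.1 CPM in MB157R iEV and 148, 135 and 154 in MB157R iN1-ICD. CDC25B rose by 0.96 (SE 0.06, adjusted p = 1.4e-07) on the log2 scale, and all 3 libraries lay above all 3 controls. The call of PRC1, a microtubule bundler of the central spindle, was the weakest (-0.09, SE 0.04, adjusted p = 0.0464), and it was not called by DESeq2 (adjusted p = 0.0722), with RLE factors or when any one of 5 of the 6 libraries was left out, with log2 fold changes of -0.08 to -0.10 in those fits. NDC80 was not called (0.14, SE 0.06, adjusted p = 0.0708), but was called higher without MB157R iEV replicate 3 (0.20, adjusted p = 0.0111). ESPL1 was not called (-0.15, SE 0.06, adjusted p = 0.0678) and was called lower without MB157R iN1-ICD replicate 1 (-0.21) or MB157R iEV replicate 2 (-0.20).

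The inductions of SOX2 and of N1-ICD share no library, so whether a member answered them unequally was tested as a difference in a fit over all 12 libraries. For 34 members the change with N1-ICD was higher than the change with SOX2, for 1 (SPC24) it was lower, and 6 (CCNB1, BIRC5, CENPE, SPC25, CDC20 and KIF4A) were not called. Among the 10024 genes tested in this way, 32.2% were called higher and 30.8% lower (25.8% and 37.4% when scaled by library totals alone, with a median of -0.07 over all genes and 31 members higher and 3 lower). Against a difference of 0.5, 7 members were called higher, where 8.01% of genes were called higher and 6.89% lower. CDC25B differed most (difference 1.66, SE 0.07, adjusted p = 2.3e-12), followed by CDC25C (0.85, SE 0.11, adjusted p = 6.3e-06), NDC80 (0.69, SE 0.08, adjusted p = 8.7e-07), KIF2C (0.68, SE 0.05, adjusted p = 2.5e-09) and KIF14 (0.67, SE 0.07, adjusted p = 1.6e-07). SPC24 differed in the other direction (-0.23, SE 0.09, adjusted p = 0.0432). Across the 41 members the log2 fold changes of the inductions had a weak negative relation (Pearson's r = -0.21, Spearman's rho = -0.20; -0.19 and -0.17 without CDC25B). This is a description across genes that share libraries. The cell background differs between the inductions as well as the construct, and these cannot be told apart.

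**Figure D2:**
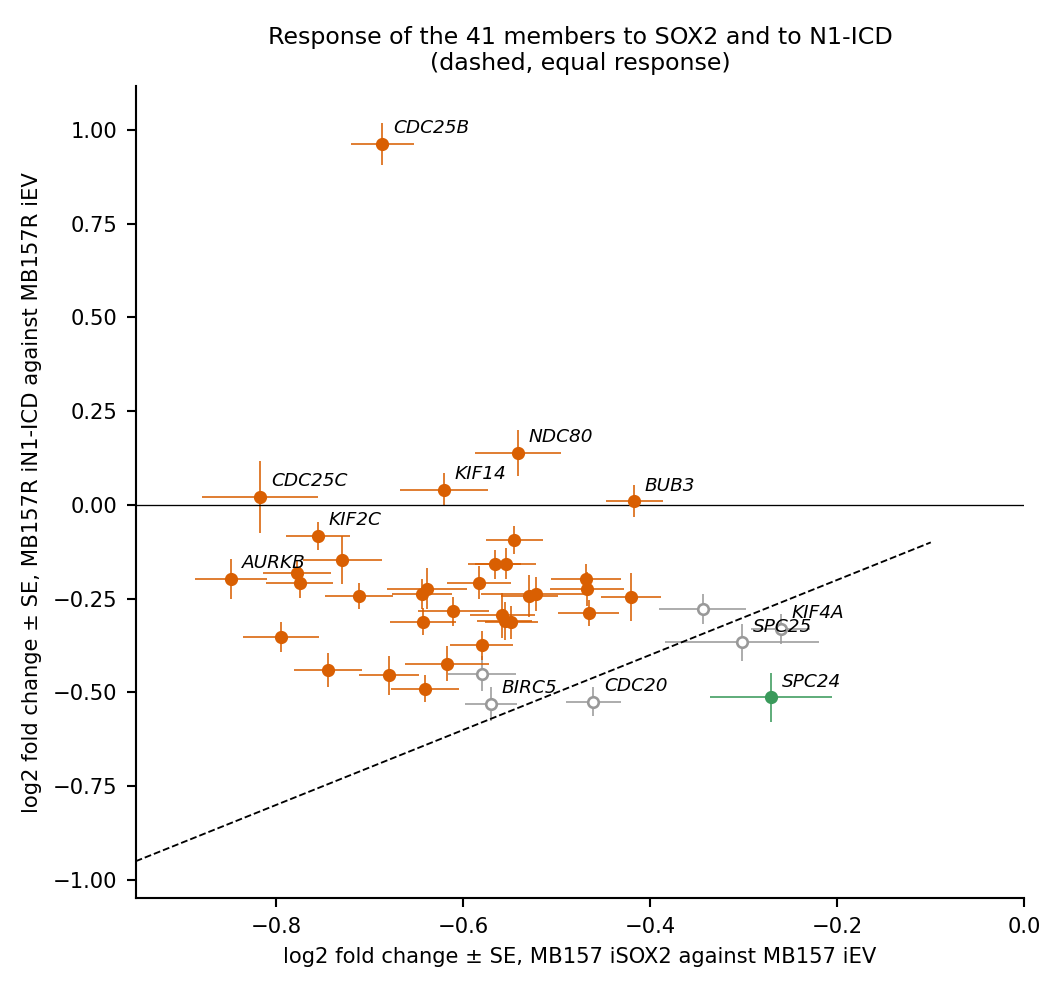
Fitted log2 fold change ± SE of each of the 41 members with SOX2 in MB157 (horizontal) and with N1-ICD in MB157R (vertical). Filled orange points are members whose change was higher with N1-ICD, the green point (SPC24) lower, and open points were not called different. A total of 37 points lie above the dashed line of equal response, and CDC25B stands alone at the top.

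The comparison of MB157R iEV with MB157 iEV asks how resistant cells differ from the cells they came from. Here the members did not move together: 25 were lower in MB157R, 10 higher and 6 not called (CDK1, AURKB, INCENP, BUB1, CENPA and SPC24). Of the 11435 tested genes, 45.3% were called lower and 45.0% higher, so the members' 25 and 10 lie on a background in which most genes differed. The groups did not overlap for 36 of 41 members and 90.9% of all tested genes. The median log2 fold change of the members was -0.23, and that of all tested genes was -0.00428, with a wider spread (SD of 0.62 over members, against 0.14 with SOX2 and 0.25 with N1-ICD). With no filter on low counts the medians lay closer together, at -0.15 for the members and -0.09 for all genes. Against a log2 fold change of 0.5, 13 members were lower and 3 higher, where 28.5% of all tested genes were lower and 30.1% higher. The directions differed by role, though each role holds few genes and role was not separated from chromosome position, which is described below. The 4 anaphase-onset genes and the 3 motors were all lower, and of the 6 genes of the Aurora kinases and the passenger complex 4 were lower and none higher. Of the 6 genes of the central spindle and cytokinesis 5 were higher (KIF23, KIF14, PRC1, ECT2 and ANLN) and 1 lower (KIF20A), and both TOP2A and MKI67 were higher.

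The largest rises in MB157R were those of BUB1B, SPC25 and KIF23. BUB1B, the checkpoint kinase BUBR1, read 95.1, 96.7 and 101 CPM in MB157 iEV and 185, 193 and 192 in MB157R iEV, a log2 fold change of 0.96 (SE 0.04, adjusted p = 2.1e-11). SPC25 read 16.0, 20.6 and 20.2 CPM in MB157 iEV and 34.5, 34.1 and 35.7 in MB157R iEV, a log2 fold change of 0.87 (SE 0.08, adjusted p = 2.0e-07). KIF23, the kinesin of the centralspindlin complex, read 76.0, 81.0 and 82.1 CPM in MB157 iEV and 137, 134 and 130.4 in MB157R iEV, a log2 fold change of 0.75 (SE 0.04, adjusted p = 6.6e-10). Every MB157R library lay above every MB157 library for the 3 genes. The largest falls were those of CDC25B, AURKA and BIRC5. CDC25B read 353, 334 and 339 CPM in MB157 iEV and 70.5, 77.0 and 78.1 in MB157R iEV, a 4.55-fold difference (log2 fold change -2.18, SE 0.04, adjusted p = 4.5e-14). AURKA, the Aurora kinase of centrosomes and spindle poles, read 241, 247 and 247 CPM in MB157 iEV and 95.6, 99.5 and 97.7 in MB157R iEV, a 2.51-fold difference (log2 fold change -1.33, SE 0.03, adjusted p = 3.6e-13). BIRC5 read 281, 292 and 281 CPM in MB157 iEV and 127, 131 and 134 in MB157R iEV, a 2.18-fold difference (log2 fold change -1.12, SE 0.03, adjusted p = 2.6e-12). No library of either group lay within the range of the other for these 3 genes.

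MB157R iEV and MB157 iEV serve as the control of one induction each as well as the sides of this comparison, so the directions below share libraries and are given side by side. Shares in percent are those of the 10007 genes tested in all 3 comparisons that had the same calls. A total of 19 members were lower in MB157R than in MB157 and fell in both inductions, among them CCNA2, CCNB1, CCNB2, PLK1, AURKA, TPX2, MAD2L1, TTK, CDC20 and UBE2C (4.64%). Another 9 were higher in MB157R and fell in both inductions (FOXM1, BUB1B, SPC25, KIF23, PRC1, ECT2, ANLN, TOP2A and MKI67; 5.31%). CDK1, AURKB, INCENP, BUB1, CENPA and SPC24 were not called between the lines and fell in both inductions (1.04%). CDC25C, BUB3, NDC80, ESPL1 and KIF2C were lower in MB157R, fell with SOX2 and were not called with N1-ICD (7.08%). KIF14 was higher in MB157R and otherwise the same (4.85%), and CDC25B was lower in MB157R, lower with SOX2 and higher with N1-ICD (5.78%).

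Among the genes of mitotic entry, CDK1 (chromosome 10, 60778331 to 60794852; all positions are RefSeq genes on GRCh38.p14), the kinase that starts mitosis, read 109, 115 and 112 CPM in MB157 iEV, 78.2, 80.5 and 85.2 in MB157 iSOX2, 118, 119.8 and 114 in MB157R iEV and 102, 103 and 99.9 in MB157R iN1-ICD. CDK1 fell with SOX2 (-0.47, SE 0.04, adjusted p = 1.4e-08) and with N1-ICD (-0.20, SE 0.04, adjusted p = 0.00128) and was not called between the lines (0.07, SE 0.04, adjusted p = 0.106), where it was called higher (0.14, adjusted p = 0.00549) with a looser filter on low counts. CCNB1 (chromosome 5, 69167150 to 69178245), cyclin B1, read 156, 174 and 164 CPM in MB157 iEV, 110.0, 109 and 112 in MB157 iSOX2, 143, 144 and 133 in MB157R iEV and 100.2, 100.2 and 106 in MB157R iN1-ICD. CCNB1 fell with SOX2 (-0.58, SE 0.04, adjusted p = 7.0e-10) and with N1-ICD (-0.45, SE 0.05, adjusted p = 1.2e-05) and was lower in MB157R (-0.23, SE 0.04, adjusted p = 3.0e-04). The order of its groups therefore had MB157 iEV on top and MB157R iN1-ICD at the bottom. CCNB2 and CCNA2 fell in both inductions and were lower in MB157R, by 0.61, 0.28 and 0.19 for CCNB2 and by 0.55, 0.16 and 0.85 for CCNA2 on the log2 scale (SOX2, N1-ICD and MB157R).

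PLK1 (chromosome 16, 23678889 to 23690367), a kinase that acts from entry to cytokinesis, read 158, 153 and 156 CPM in MB157 iEV, 95.5, 96.4 and 101 in MB157 iSOX2, 108, 104 and 102 in MB157R iEV and 77.5, 70.2 and 79.9 in MB157R iN1-ICD. PLK1 fell with SOX2 (-0.68, SE 0.03, adjusted p = 1.9e-11) and with N1-ICD (-0.45, SE 0.05, adjusted p = 2.7e-05) and was lower in MB157R (-0.57, SE 0.04, adjusted p = 3.6e-09). FOXM1 (chromosome 12, 2857680 to 2877174), a transcription factor of late cell cycle genes, read 140.0, 146 and 143 CPM in MB157 iEV, 87.5, 95.9 and 92.9 in MB157 iSOX2, 154, 156 and 154 in MB157R iEV and 111, 107 and 111 in MB157R iN1-ICD. FOXM1 fell with SOX2 (-0.64, SE 0.04, adjusted p = 1.8e-10) and with N1-ICD (-0.49, SE 0.04, adjusted p = 8.3e-07) and was higher in MB157R (0.11, SE 0.03, adjusted p = 0.00554). Its rise in MB157R was the smallest of the 10. CDC25B (chromosome 20, 3786951 to 3806115) read 353, 334 and 339 CPM in MB157 iEV, 206, 223 and 209.9 in MB157 iSOX2, 70.5, 77.0 and 78.1 in MB157R iEV and 148, 135 and 154 in MB157R iN1-ICD, so that MB157R iN1-ICD lay between MB157R iEV and MB157 iSOX2 without overlap. CDC25C (chromosome 5, 138285265 to 138338355) read 11.2, 12.4 and 12.4 CPM in MB157R iEV and 10.8, 11.8 and 13.6 in MB157R iN1-ICD, where the libraries overlapped (0.02, SE 0.10, adjusted p = 0.861).

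In the group of Aurora kinases and their partners, AURKA (chromosome 20, 56369390 to 56392215) read 164, 166 and 172 CPM in MB157 iSOX2 and 76.4, 74.3 and 84.2 in MB157R iN1-ICD, below the controls given above in each line. AURKA fell with SOX2 (-0.56, SE 0.03, adjusted p = 7.1e-11) and with N1-ICD (-0.31, SE 0.05, adjusted p = 4.1e-04). TPX2, which brings AURKA to the spindle and activates it, fell by 0.57 with SOX2 and 0.16 with N1-ICD and was lower by 0.48 in MB157R on the log2 scale. AURKB (chromosome 17, 8204731 to 8210575) read 84.9, 90.7 and 85.8 CPM in MB157R iEV, overlapping MB157 iEV (-0.0039, SE 0.04, adjusted p = 0.93), and 75.4, 71.1 and 80.3 in MB157R iN1-ICD (-0.20, SE 0.05, adjusted p = 0.00773). Between the lines INCENP, the scaffold of the complex, was likewise not called (0.03, SE 0.03, adjusted p = 0.457; 0.10, adjusted p = 0.0211 with a looser filter on low counts), while BIRC5 and CDCA8 (borealin) were lower in MB157R, the latter with -1.10 (SE 0.04, adjusted p = 3.9e-12). BIRC5 (chromosome 17, 78214253 to 78225635) read 193, 192 and 192 CPM in MB157 iSOX2 and fell with SOX2 (-0.57, SE 0.03, adjusted p = 2.8e-11).

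Of the checkpoint genes, BUB1 (chromosome 2, 110637528 to 110678063), a kinetochore kinase of the checkpoint, read 114, 124 and 118 CPM in MB157 iEV, 68.6, 70.4 and 69.3 in MB157 iSOX2, 118, 119 and 121 in MB157R iEV and 104, 105 and 106 in MB157R iN1-ICD. BUB1 fell with SOX2 (-0.78, SE 0.04, adjusted p = 1.6e-11), fell less with N1-ICD (-0.18, SE 0.04, adjusted p = 0.00115; difference 0.61, SE 0.05, adjusted p = 1.3e-08) and was not called between the lines (0.01, SE 0.04, adjusted p = 0.773). BUB1B (chromosome 15, 40161069 to 40221123) read 61.8, 63.9 and 62.2 CPM in MB157 iSOX2 and 151, 155 and 150.3 in MB157R iN1-ICD, a fall in each induction (-0.64, SE 0.04, adjusted p = 1.2e-10 and -0.31, SE 0.04, adjusted p = 2.7e-05), and both MB157R groups lay above both MB157 groups. MAD2L1, the MAD2 protein that inhibits CDC20, and TTK, the MPS1 kinase at the head of the checkpoint, were lower in MB157R by 0.90 and 0.69 and fell in both inductions. BUB3, which binds BUB1 and BUB1B, fell with SOX2 (-0.42, SE 0.03, adjusted p = 4.8e-09) and had a log2 fold change of 0.01 (SE 0.04, adjusted p = 0.853) with N1-ICD.

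At the kinetochore, the 4 subunits of the NDC80 complex, which holds microtubules, moved apart. NDC80 (chromosome 18, 2571557 to 2616635) read 59.0, 63.5 and 60.4 CPM in MB157 iEV, 43.9, 40.1 and 42.2 in MB157 iSOX2, 38.3, 38.4 and 43.8 in MB157R iEV and 42.9, 42.4 and 46.8 in MB157R iN1-ICD. NDC80 fell with SOX2 (-0.54, SE 0.05, adjusted p = 3.0e-08) and was lower in MB157R (-0.60, SE 0.06, adjusted p = 3.7e-07). Its partner NUF2 fell with SOX2 by 0.62 and with N1-ICD by 0.42 and was lower in MB157R by 0.39. SPC25 (chromosome 2, 168861521 to 168890430) read 14.8, 15.7 and 15.9 CPM in MB157 iSOX2 and 26.0, 27.7 and 26.8 in MB157R iN1-ICD, and SPC24 (chromosome 19, 11145493 to 11155782) read 21.8, 24.6 and 22.3 CPM in MB157 iEV and 17.6, 19.9 and 19.6 in MB157 iSOX2. SPC25 was thus higher in MB157R while NDC80 and NUF2 were lower and SPC24 was not called (-0.12, SE 0.06, adjusted p = 0.0878). CENPE, a kinetochore motor, and CENPF fell in both inductions and were lower in MB157R (by 0.32 and 0.69), and CENPA, the histone H3 variant that marks centromeres, fell by 0.52 with SOX2 and 0.24 with N1-ICD.

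Among the genes of anaphase onset, CDC20 (chromosome 1, 43358981 to 43363203) read 169.6, 173 and 177 CPM in MB157 iEV and 125, 126 and 128 in MB157 iSOX2. CDC20 fell with SOX2 (-0.46, SE 0.03, adjusted p = 8.8e-10) and was lower in MB157R (-0.34, SE 0.03, adjusted p = 4.7e-07). UBE2C, the ubiquitin-conjugating enzyme of the anaphase-promoting complex, fell by 0.56 and 0.29 and was lower in MB157R by 0.77. PTTG1 (securin), the inhibitor of separase, fell by 0.74 and 0.44 and was lower in MB157R by 0.64, and ESPL1, separase itself, fell by 0.73 with SOX2 and was lower in MB157R by 0.24. BUB1B, CENPA, PRC1 and CCNB2 overlap an annotated gene on the same strand (PAK6, SLC35F6 and entries without a gene symbol), so their counts could hold reads of both. The near-identical copies PTTG2 and PTTG3P held at most 0.033 CPM in any library. KIF4B, the copy of KIF4A, held up to 0.736 CPM against at least 77.0 for KIF4A.

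Of the motors, KIF11 (chromosome 10, 92593130 to 92655395), the kinesin that pushes spindle poles apart, read 146, 155 and 153 CPM in MB157 iEV, 98.4, 97.2 and 96.5 in MB157 iSOX2, 140.4, 134 and 133 in MB157R iEV and 118, 110.4 and 115 in MB157R iN1-ICD. KIF11 fell with SOX2 (-0.64, SE 0.03, adjusted p = 3.2e-11) and with N1-ICD (-0.24, SE 0.04, adjusted p = 5.4e-04) and was lower in MB157R (-0.16, SE 0.04, adjusted p = 0.00123), a call that was lost when no filter on low counts was applied (log2 fold change -0.08, adjusted p = 0.0816). KIF2C (MCAK), which takes microtubules apart at centromeres, fell by 0.76 with SOX2 and had a log2 fold change of -0.08 (SE 0.04, adjusted p = 0.0795) with N1-ICD. KIF4A fell by 0.26 with SOX2 and by 0.33 with N1-ICD.

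In the central spindle and cytokinesis group, KIF23 (chromosome 15, 69414349 to 69448427) read 56.5, 57.4 and 59.6 CPM in MB157 iSOX2 and 110.0, 111 and 120.2 in MB157R iN1-ICD. KIF23 fell with SOX2 (-0.47, SE 0.04, adjusted p = 3.2e-08) and with N1-ICD (-0.23, SE 0.05, adjusted p = 0.00147), and its MB157R iN1-ICD libraries still lay above all MB157 iEV libraries. KIF20A (chromosome 5, 138179112 to 138187723) read 73.6, 75.5 and 77.7 CPM in MB157R iEV and 60.1, 57.5 and 59.2 in MB157R iN1-ICD, a fall (-0.35, SE 0.04, adjusted p = 3.0e-05), and was lower in MB157R (-0.21, SE 0.04, adjusted p = 3.5e-04). ANLN (anillin), a scaffold of the contractile ring, and ECT2, the exchange factor that activates RhoA there, were higher in MB157R by 0.49 and 0.20 and fell by 0.71 and 0.47 with SOX2 and by 0.24 and 0.29 with N1-ICD. KIF14 was higher in MB157R by 0.56, fell with SOX2 by 0.62 and had a log2 fold change of 0.04 (SE 0.04, adjusted p = 0.438) with N1-ICD.

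TOP2A (chromosome 17, 40388525 to 40417896), the topoisomerase that untangles sister chromatids, read 596, 629 and 626 CPM in MB157 iEV, 419.8, 424 and 426 in MB157 iSOX2, 885, 843 and 932 in MB157R iEV and 715, 729 and 686 in MB157R iN1-ICD. TOP2A fell with SOX2 (-0.55, SE 0.03, adjusted p = 4.9e-11) and with N1-ICD (-0.31, SE 0.04, adjusted p = 1.4e-04) and was higher in MB157R (0.53, SE 0.04, adjusted p = 5.2e-08), and both MB157R groups lay above both MB157 groups. MKI67 (chromosome 10, 128096659 to 128126423), which coats mitotic chromosomes and is the usual proliferation marker, read 278, 287 and 300.4 CPM in MB157 iEV, 222, 212 and 215 in MB157 iSOX2, 386, 319.6 and 373 in MB157R iEV and 318, 291 and 295 in MB157R iN1-ICD. MKI67 fell with SOX2 (-0.42, SE 0.03, adjusted p = 8.1e-09) and with N1-ICD (-0.24, SE 0.06, adjusted p = 0.00701) and was higher in MB157R (0.32, SE 0.06, adjusted p = 2.3e-04). Within MB157R iEV its libraries spread more than those of any other member (coefficient of variation of 9.74%), with replicate 2 nearest to the MB157R iN1-ICD libraries.

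Other genes of mitosis mostly fell with SOX2, as did genes of DNA replication, while with N1-ICD the replication genes were called in both directions. Of 86 tested genes among 90 other mitosis genes (condensins, further kinetochore and spindle genes, mitotic kinases), 77 fell and 1 rose with SOX2 (median -0.46), and 47 fell and 5 rose with N1-ICD (median -0.16). The largest fall with SOX2 was that of NEK2, a centrosome kinase (log2 fold change -1.03, adjusted p = 4.1e-13), and the only rise that of MAD1L1 (log2 fold change 0.18, adjusted p = 0.0319). The largest falls with N1-ICD were those of BORA and CENPI (log2 fold change -0.46, adjusted p = 8.8e-04 and log2 fold change -0.46, adjusted p = 7.1e-05). Of the 52 DNA replication genes 43 fell and 2 rose with SOX2 (median -0.31), with PRIM1 the lowest (log2 fold change -0.86, adjusted p = 2.4e-09), while with N1-ICD 10 fell and 16 rose (median 0.05), the latter near the 29.8% of all tested genes called higher. CDT1, which loads the replicative helicase, rose most with N1-ICD (log2 fold change 0.77, adjusted p = 4.4e-07), and UHRF1 fell most (log2 fold change -0.44, adjusted p = 2.8e-06). Tested as a difference between the inductions, 44 of the 52 replication genes were higher with N1-ICD and 1 lower (32.2% and 30.8% of all genes). In MB157R against MB157, 29 replication genes were higher and 14 lower (median 0.27), and of the other mitosis genes 39 were higher and 42 lower (median -0.08). Of all tested genes 45.0% were higher and 45.3% lower in MB157R. With SOX2 33.9% of all tested genes fell and 32.5% rose, and with N1-ICD 29.3% fell.

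Genes of machinery that mitosis shares with other processes had smaller median changes with SOX2. The counts below stand on a background of 33.9% of all tested genes lower and 32.5% higher with SOX2. With N1-ICD these shares were 29.3% and 29.8%. Called lower with N1-ICD were 53.3% of anaphase-promoting complex genes, 58.8% of ESCRT genes, 50% of tubulin genes and 33.3% of cohesin genes. In the MuvB, B-MYB and E2F list 16.7% were called lower. The N1-ICD medians of the anaphase-promoting complex (-0.14) and ESCRT genes (-0.17) were close to that of other mitosis genes (-0.16). Of 15 subunits of the anaphase-promoting complex 8 fell and 2 rose with SOX2 (median -0.11), of 9 tested cohesin genes 7 fell (median -0.13), and of 17 ESCRT genes, which cut the midbody, 3 fell and 6 rose (median 0.02). With N1-ICD 8 subunits of the anaphase-promoting complex fell and 2 rose (median -0.14), 3 cohesin genes fell and 2 rose (median -0.05), and 10 ESCRT genes fell and 3 rose (median -0.17). Of 15 tubulin genes tested with SOX2 8 fell and 5 rose, with TUBB2B (log2 fold change -0.86, adjusted p = 1.2e-09) and TUBA4A (log2 fold change 0.93, adjusted p = 5.1e-10) at the ends. Of 14 tested with N1-ICD 7 fell and 4 rose. Among 19 regulators in the MuvB, B-MYB and E2F list, 11 fell and 1 rose with SOX2 (median -0.20), while of 18 tested with N1-ICD 3 fell and 7 rose (median 0.11), E2F2 among the latter (log2 fold change 1.22, adjusted p = 7.5e-06). In MB157R against MB157, 13 of the 19 regulators were lower and 6 higher, with large changes at the ends of the list. E2F3 read 95.9 ± 2.67 CPM in MB157 iEV and 1068 ± 16.6 in MB157R iEV (log2 fold change 3.48, adjusted p = 1.9e-16), and E2F2 read 56.5 ± 0.796 and 3.49 ± 0.319 CPM (log2 fold change -4.01, adjusted p = 7.5e-15). In the same comparison 5 subunits of the anaphase-promoting complex were higher and 9 lower, 6 cohesin genes higher and 3 lower, 6 ESCRT genes higher and 9 lower, and 11 tubulin genes higher and 4 lower, on the background of 45.0% of all tested genes higher and 45.3% lower.

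In MB157R against MB157, members tended to be higher or lower along with the genes around them on the chromosome. For each member the other tested genes whose start lies within 5 Mb of its own were collected, and their median log2 fold change ranged from -0.92 to 1.45. Across the 41 members this median and the member's own change had a Pearson's r of 0.59 and a Spearman's rho of 0.54. In the same windows r was 0.07 for SOX2 and 0.07 for N1-ICD (rho of 0.10 and 0.18). The neighbour medians there spanned less, from -0.24 to 0.64 and from -0.16 to 0.13. The same relation was not computed for genes other than the members. Members that lie close together share neighbours, so the 41 points are not independent. BUB1B and KIF23 lie on chromosome 15, where the median of 353 tested genes was 0.79. Around BUB1B the 73 neighbours had a median of 0.87, and around KIF23 the 56 neighbours had a median of 0.97. CDC25B and AURKA lie at opposite ends of chromosome 20, where the median of 306 tested genes was -0.61, and their 52 and 24 neighbours had medians of -0.88 and -0.89. PLK1 lies among 48 genes with a median of -0.92, SPC25 among 31 with 0.78, and TOP2A among 146 with 0.94. In the central spindle and cytokinesis group, PRC1 had 37 neighbours with a median of 0.56, ECT2 17 with 1.03 and ANLN 16 with 0.63. KIF20A, the lower gene of that group, had 67 with -0.58. Other members departed from their surroundings. MKI67 was higher among 22 neighbours with a median of -0.45. BUB1 had 38 neighbours with a median of 1.45 and did not differ between the lines beyond its spread, KIF14 was higher among 56 neighbours with a median of -0.69, CCNB2 was lower among 34 neighbours with a median of 0.81, and CDCA8 was lower among 78 neighbours with a median of 0.14. DNA copy number was not measured here, and its part in these changes was not tested.

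Promoters of late cell cycle genes are known for the cell cycle genes homology region (CHR, TTTGAA), bound by MuvB, and for CCAAT boxes, bound by NF-Y. RefSeq promoters of GRCh38.p14 (250 bases before to 50 after the start) were given for 34 of the 41 members. AURKA, TPX2, FOXM1, BIRC5, UBE2C, BUB3 and TTK had none. TTTGAA was found on either strand in 23 of the 34 (67.6%), against 15.4% of 27305 promoters, and CCAAT in 26 (76.5%), against 35.7%. Both were found in 19 (55.9%), against 6.08% of all promoters and 1 of 43 promoters of DNA replication genes. An E2F site (TTTCGCGC or TTTGGCGC) was found in 1 member promoter (CDK1; 1.18% of all) and in 10 of the 43 replication promoters. The RBPJ core TGGGAA was found in 12 of the 34 (35.3%; 24.3% of all) and the SOX core CATTGT in 0 of the 34 (11.0% of all) in this window. All motifs were searched on both strands by these exact letters, so variants of a motif were not counted. A TGGGAA of CCNB1 overlaps its CCAAT at -87. The motifs are short and were not tested for binding. The 52 CCAAT matches had a median position of -73.5 and the 29 CHR matches of -28, counted from the start site.

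The 120 bases before the start site are shown for 7 members in which the motifs lie in different arrangements, on the gene's strand, with CHR and CCAAT matches of either strand in capitals.
CCNB1 (chr5:69167030-69167149, plus strand): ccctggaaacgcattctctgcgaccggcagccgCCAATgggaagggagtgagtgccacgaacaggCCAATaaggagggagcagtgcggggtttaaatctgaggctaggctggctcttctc
CCNB2 (chr15:59105026-59105145, plus strand): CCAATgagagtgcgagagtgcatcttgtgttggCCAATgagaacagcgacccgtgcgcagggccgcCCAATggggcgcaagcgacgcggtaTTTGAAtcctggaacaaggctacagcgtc
PLK1 (chr16:23678769-23678888, plus strand): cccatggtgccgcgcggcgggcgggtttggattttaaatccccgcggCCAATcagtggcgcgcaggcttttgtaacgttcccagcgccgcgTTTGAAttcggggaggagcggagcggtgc
CDC20 (chr1:43358861-43358980, plus strand): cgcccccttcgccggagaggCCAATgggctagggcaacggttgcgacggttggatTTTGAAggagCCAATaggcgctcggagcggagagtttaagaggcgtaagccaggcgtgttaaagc
PRC1 (chr15:90994536-90994655, minus strand): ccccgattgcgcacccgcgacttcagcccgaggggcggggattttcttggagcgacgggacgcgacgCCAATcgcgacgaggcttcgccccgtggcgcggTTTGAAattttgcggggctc
KIF23 (chr15:69414229-69414348, plus strand): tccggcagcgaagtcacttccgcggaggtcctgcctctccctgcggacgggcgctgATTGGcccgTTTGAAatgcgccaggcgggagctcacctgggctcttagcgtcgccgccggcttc
BUB1B (chr15:40160949-40161068, plus strand): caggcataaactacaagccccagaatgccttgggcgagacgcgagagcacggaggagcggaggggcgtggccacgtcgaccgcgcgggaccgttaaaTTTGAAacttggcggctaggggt
Within these bases CCNB1 has a pair of CCAAT boxes at -87 and -55 and no exact TTTGAA. CCNB2 has CCAAT at -120, -87 and -54 and a CHR at -29. In PLK1 and PRC1 a single CCAAT (at -73 and -53) stands before the CHR (at -29 and -20), in CDC20 the CHR at -65 lies between CCAAT boxes at -100 and -55, in KIF23 an inverted CCAAT at -64 is followed by the CHR at -55, and BUB1B has a CHR at -23 and no CCAAT. All 7 fell with SOX2 and with N1-ICD, by 0.46 to 0.68 and by 0.09 to 0.52 on the log2 scale. All 41 members fell with SOX2 and 34 with N1-ICD, so these falls do not tell the arrangements apart. The fall of PRC1 with N1-ICD was the weakest call.

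With SOX2 the 19 members with both motifs had a median log2 fold change of -0.55 and the 15 without both -0.69, and with N1-ICD the medians were -0.24 and -0.24. Of other tested genes with both motifs in their promoter, 154 of 334 were lower with SOX2 (46.1%; 32.8% of those without both), and 128 of 351 with N1-ICD (36.5%; 29.3% of those without both). Only the 41 members were left out of these genes. The other mitosis genes were not, and their part in these shares was not tested.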

How the data were processed

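The 12 libraries were made with a stranded mRNA kit from 800 ng of RNA and sequenced. The authors aligned reads to hg38 with STAR and deposited Salmon's estimated counts per gene, which were rounded to whole numbers here. The authors also deposited log2 CPM tables (limma-voom, TMM, edgeR 3.42.4 and limma 3.56.2) of the genes that passed their filter. These log2 values were recomputed to within 5.0e-14 and used for the choice of tested genes only. Each comparison was fitted with edgeR 4.0.16 (quasi-likelihood test, TMM, R 4.3.3, no covariates) on the 6 libraries of its groups, and the difference of the inductions on all 12 libraries. P-values are two-sided and adjusted by Benjamini-Hochberg over all genes tested. The SE of a log2 fold change was derived as its absolute value divided by the square root of the test's F statistic. This count test stands in place of the limma-voom fit of the study, which is an alternative along with DESeq2 1.42.0, other scalings and filters, the replicate number as a block, a null of 0.5 on the log2 scale and leaving out each library.

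The 41 members, the gene lists and the tests were chosen with earlier results of these data known. Shown with each library's value are the called members that rose most or fell most in a comparison (3 of each) and 13 genes of known mitotic role named whatever their values. Other lists are given by counts, with at most their 2 largest rises and falls among called genes of at least 1 CPM. The list of neighbours within 5 Mb and the split by promoter motifs were chosen after values were seen. Promoters are the first listed start of each symbol. The labels do not say that the 3 libraries of a group came from separate cultures, so p-values measure only the spread between these libraries. Replicate pairs differed by more than sampling noise (chi-square per gene of 3.69 to 18.0 over 17103 genes). Total counts of 32773820 to 49055208 and at least 415 counts for every member gave a median coefficient of variation of 2.22% to 3.29% between replicates. Same-numbered libraries did not deviate together (correlations of -0.19 to 0.09), so the numbers were not taken to pair samples.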

Additional observations from a re-analysis of the deposited data

How the results depend on the processing

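All 41 falls with SOX2 kept their direction and call under the 8 other settings and when any library was left out, apart from the test against a log2 fold change of 0.5, and no result reversed. Against 0.5 the members called were 23 lower with SOX2, 0 lower with N1-ICD (0 also at an unadjusted p under 0.05), 13 lower and 3 higher in MB157R, and 7 for the difference of the inductions. The median of the members with SOX2 was -0.52 when scaled by library totals alone. In MB157R against MB157 the median was -0.16 when genes with a mean count under 5 were dropped and -0.15 with no filter (all genes -0.09), and ranged from -0.26 to -0.18 when a library was left out, its highest value being without MB157 iEV replicate 2. With N1-ICD the median was -0.27 under both filters and -0.27 to -0.24 when a library was left out. Members called higher with N1-ICD numbered 2 in place of 1 with the replicate block and 1 to 2 when a library was left out (NDC80 joins CDC25B, without MB157R iEV replicate 3). The numbers share only a label, and in no comparison did every library correlate best with its own number. The block also gained ESPL1 (adjusted p = 0.0402) and lost PRC1 (adjusted p = 0.0662) with N1-ICD, by edgeR. Across the 8 other settings 9 single-gene results with N1-ICD gained a call (ESPL1, KIF2C and NDC80) and 3 lost one (PRC1), and in MB157R against MB157 4 gained one (CDK1 and INCENP) and 1 lost it (KIF11). The cause of these moves was not tested. Every member held at least 415 counts in every library.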
